A study of Mus musculus with 2 samples.

Results

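Id proteins and the basic helix-loop-helix (bHLH) factors they act on were compared between the distal and proximal parts of mouse limb-mesenchymal organoids. The group was set by gene symbol: the Id genes Id1, Id2, Id3 and Id4, the E-protein genes Tcf3, Tcf4 and Tcf12, and the partner genes Twist1, Twist2 and Hand2. All 10 symbols were found among the 13916 protein-coding genes of the authors' deposited table. Per the labels, mouse embryonic limb mesenchymal cells of genotype Slc:ICR were kept for 48 h in medium with Fgf8b and Wnt3a, a condition that both groups share, and 5 organoids from 4 cultures were frozen at day 2. In photo-isolation chemistry, cDNA is made inside a tissue section with light-caged primers, and only lit areas enter the library. The distal group was 5 lit distal regions pooled into 1 library, and the proximal group was 5 lit proximal regions pooled into 1 library, so an effect of the side and an effect of the library cannot be told apart. An organoid grown from dissociated mesenchyme is a model of the limb bud without its in vivo axes, and the labels do not tie a region to an organoid or a culture.

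E-proteins are broadly expressed bHLH transcription factors that pair with tissue-restricted bHLH factors such as Twist1 and Hand2 and bind a short DNA word, the E-box. Id proteins carry the helix-loop-helix but lack the basic stretch that contacts DNA, so a bHLH factor paired with an Id protein cannot bind. In many cell types BMP signals acting through Smad proteins raise transcription of Id genes, and in the limb bud Twist1 supports outgrowth while Hand2 acts in the posterior mesenchyme upstream of Shh. Tcf3, Tcf4 and Tcf12 are E-protein genes and are not the Wnt effector genes whose proteins share the TCF name.

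The E-box is the word CANNTG. It was looked for on both strands in the 250 bases before each transcription start in RefSeq's promoters (GRCm38.p6), and 66.2% of the 32851 windows held it. Of the members, 8 had a window in that table, and the word was present for 4 of them: Id2, Tcf3, Tcf12 and Hand2. By window, 5 of the 10 member windows held it. The form CAGCTG, itself one of the CANNTG words, was in 4271 of all windows, or 13%. It was in 2 of the 10 member windows, a window of Id2 and a window of Tcf12. These sites are shown because they are the kind of DNA word that the E-protein dimers bind and that Id proteins keep them from binding. No binding was measured here, and a match is only a description of the letters. The capitals mark the E-box in 30 bases, read 5′ to 3′ on the gene's own strand.
Id2: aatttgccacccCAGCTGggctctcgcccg
Hand2: gaagCATCTGttaaaCACTTGcattaacct
Tcf3: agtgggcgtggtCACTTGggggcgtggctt
Tcf12: agatgctgccCAGCTGcgtccccgtcgcgg
The Id2 site lies at chr12:25096271-25096300 on the minus strand, and its E-box begins 196 bases before the start of that window. This stretch is inside the span of Id2 in GENCODE M21 but overlaps no exon. The Hand2 stretch, at chr8:57320733-57320762 on the plus strand, holds 2 E-boxes, 246 and 235 bases before the start, and overlaps an exon of another gene. The Tcf3 site is at chr10:80433672-80433701 and the Tcf12 site at chr9:72112040-72112069, both on the minus strand, with E-boxes 54 and 240 bases before the start. A window at another start of Tcf12 held the word CAAGTG, 149 bases before that start and inside the span of Tcf12. The windows of Id3, Id4, Twist1 and Twist2 did not hold the word.

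The table gives 1 mean, 1 log2 change with its standard error (SE) and 1 p for each gene, and no value per region was used here. The mean is in normalized counts over all 10 regions, and a positive log2 change is higher in distal. The level on each side and the counts behind it are approximations computed here from those deposited values and from the regions' size factors. Per region, the size factors correspond to 46991 to 118978 counts in distal and 214774 to 345649 in proximal, so distal values are the less precise. Counts, unlike levels, are not corrected for this depth, and the proximal size factors sum to 3.30 times the distal ones. A call is an adjusted p under 0.05 per the authors' deposited table. Differences in RNA per cell and in the number of cells of a type cannot be told apart in these pooled regions.

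Id3 was higher in distal, and it was the only called gene among the 10. The share called over all genes of the table was 0.977% in either direction, 0.395% higher in distal and 0.582% higher in proximal. Calls are more frequent among well-counted genes: 9 of the 10 members had a mean of at least 10, and of the 3757 such genes 3.03% were called. With 10 genes, a count of 1 does not set the group apart. An unadjusted p under 0.05 was found for Id2, Id3 and Tcf4, 3 of the 10, where the table had 6.07% of all genes and 12.0% of those with a mean of at least 10. The median log2 change was -0.053 over the 10 members, 0.067 over all genes and 0.0047 over the genes with a mean of at least 10. Of the members, 3 had a positive and 7 a negative value.

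**Figure D1:**
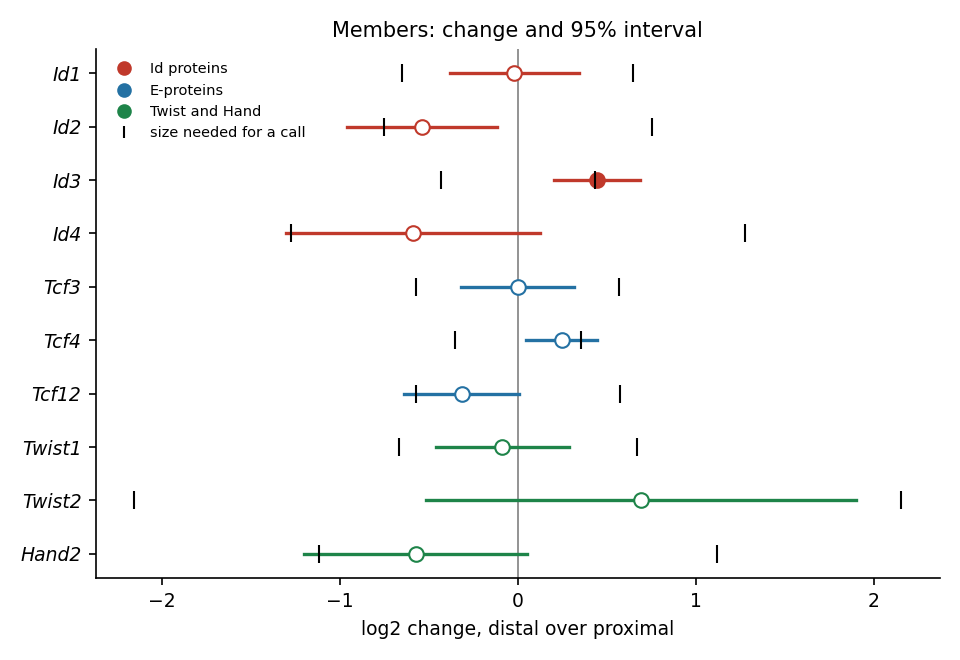
Log2 change of distal over proximal (horizontal axis) for each of the 10 genes, with its 95% interval from the authors' SE as a line; a filled point is called and an open one is not. Black ticks mark the size of change at which each gene would have been called: Id3 lies at 0.44, just past its tick at 0.43, and every other point lies inside its ticks.

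Among the Id genes, Id3 stood on the distal side, Id1 near 0, and Id2 and Id4 on the proximal side. The level of Id3 (ENSMUSG00000007872, chr4:136143497-136145755, plus strand) was about 177 normalized counts per region in distal and 130.1 in proximal. These levels rest on about 519 distal and 1256 proximal counts. In the authors' deposited table its log2 change was 0.44 with an SE of 0.12 and an adjusted p of 0.0345, a 1.36-fold higher level in distal with a 95% interval of 1.15 to 1.61. This was the smallest log2 change of the 55 genes called higher in distal, whose median was 1.03. Its mean of 153.6 normalized counts went with a small error, rank 32 of the 13916 SEs counted from the smallest. Of the 51 genes with a mean within 1.2 times that of Id3, itself included, 6 were called.

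The call of Id3 was close to the limit. Its statistic, the log2 change divided by its SE, was 3.61 per the authors' deposited table, where the smallest size of a call was 3.50 and the largest of an uncalled gene 3.49. By p it ranked 127 of the 136 calls. With the log2 changes centred on the median of all genes its log2 change was 0.38 and its adjusted p, from the deposited SE with Benjamini-Hochberg adjustment over the table, was 0.146. Centred instead on the median of the genes with a mean of at least 10, its log2 change was 0.44. The adjusted p, obtained in the same way, was then 0.0380, and Id3 stayed called. The called genes with the closest log2 change to Id3, over the 2 groups, were Rpl39, a ribosomal protein gene, Eif4g2, a translation initiation factor gene, and Cdc42, a cell polarity gene. They lay 0.025, 0.047 and 0.059 from Id3 in log2 change, by the authors' deposited table.

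Id2 (ENSMUSG00000020644, chr12:25093799-25097140, minus strand) had the opposite sign. Its level was about 46.9 in distal and 68.1 in proximal, from about 137 and 658 counts. The authors' deposited table gave it a log2 change of -0.54 with an SE of 0.21, an unadjusted p of 0.0123 and an adjusted p of 0.460, so it was not called. On a linear scale the proximal level was 1.45 times the distal one, with a 95% interval of 1.08 to 1.95. At its SE, Id2 would have needed a log2 change of 0.75 in either direction to be called.

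Id4 (ENSMUSG00000021379, chr13:48261228-48266026, plus strand) resembled Id2 in size but was counted far less. About 38.3 distal and 190.2 proximal counts gave levels of 13.1 and 19.7. Its log2 change in the authors' deposited table was -0.59 with an SE of 0.36 and an adjusted p of 0.991, and the 95% interval of -1.31 to 0.12 holds 0. Exons of 2 genes on the opposite strand, A330033J07Rik and Gm49291, overlap Id4 in GENCODE M21. Whether the authors counted by strand is not given in the sources used here, so reads of the overlap cannot be assigned.

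Id1 (ENSMUSG00000042745, chr2:152736251-152737410, plus strand) is, with Id3, among the Id genes best known as direct BMP-Smad targets. Its levels were about 53.8 in distal and 54.5 in proximal, from about 157 and 526 counts. In the authors' deposited table its log2 change was -0.020 with an SE of 0.19. Its 95% interval of -0.38 to 0.34 leaves room for a level up to 1.27 times higher in distal or 1.30 times higher in proximal.

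Id genes were also set against each other by the difference of their log2 changes, with the errors of the 2 genes taken as independent. Id2 minus Id3 was -0.98 with a 95% interval of -1.47 to -0.50, and Id3 minus Id4 was 1.04 with an interval of 0.28 to 1.79. Id1 minus Id3 was -0.46, with an interval of -0.90 to -0.029. The intervals for Id1 minus Id2, at -0.037 to 1.08, and for Id2 minus Id4, at -0.78 to 0.88, hold 0, as does that for Id1 minus Id4. Such intervals describe a family chosen with earlier results known and are not adjusted for the 12 pairs compared within the 3 roles.

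**Figure D2:**
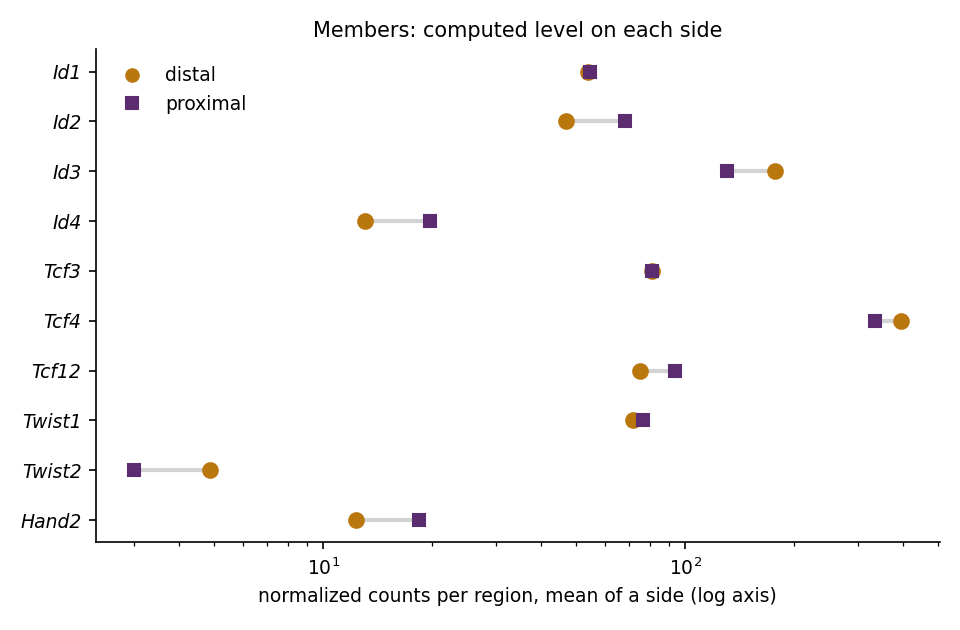
Computed level of each of the 10 genes on each side, in normalized counts per region on a log axis; circles are distal, squares are proximal, and a grey line joins the sides of a gene. The circle lies to the right for Id3, Tcf4 and Twist2, the symbols nearly coincide for Id1 and Tcf3, and the levels are not divided by transcript length, so genes are to be compared only with themselves.

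No E-protein gene was called. Tcf4 (ENSMUSG00000053477, chr18:69343356-69689079, plus strand) was the most deeply counted member, with about 1158 distal and 3219.7 proximal counts behind levels of 395 and 334. Its log2 change in the authors' deposited table was 0.25 with an SE of 0.10, an unadjusted p of 0.0146 and an adjusted p of 0.506. The corresponding fold was 1.19 in favour of distal, with a 95% interval of 1.03 to 1.36. That SE was rank 6 in the table, counted from the smallest, and a log2 change of 0.35 would have been called.

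Tcf12 (ENSMUSG00000032228, chr9:71842688-72111871, minus strand) leaned the other way. Its levels were about 75.0 in distal and 93.4 in proximal, from about 219.7 and 902 counts. The log2 change was -0.32 with an SE of 0.16 and an unadjusted p of 0.0532 per the authors' deposited table, where its adjusted p was 0.951. Tcf3 (ENSMUSG00000020167, chr10:80409514-80433647, minus strand) had levels of about 80.9 and 81.0, from about 237 and 782 counts. Its log2 change in the authors' deposited table was -0.00096 with an SE of 0.16. The 95% interval of -0.32 to 0.32, from the spread between these regions only, corresponds to at most 1.25-fold in either direction.

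Within the E-proteins, Tcf4 minus Tcf12 was 0.56 on the log2 scale with a 95% interval of 0.19 to 0.94. Neither gene was itself called, and Tcf3 lay between them without a difference from either that leaves out 0: Tcf3 minus Tcf4 ran from -0.62 to 0.13 and Tcf3 minus Tcf12 from -0.14 to 0.77.

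Of the tissue-restricted partners, Twist1 was the best counted. Twist1 (ENSMUSG00000035799, chr12:33957671-33959829, plus strand) had levels of about 71.8 in distal and 76.2 in proximal, from about 210.1 and 736 counts. The authors' deposited table listed a log2 change of -0.087 with an SE of 0.19 and an adjusted p of 0.991. Its 95% interval, -0.46 to 0.29, corresponds to a level at most 1.22 times higher in distal or 1.38 times higher in proximal.

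Hand2 (ENSMUSG00000038193, chr8:57320983-57324633, plus strand) had lower levels in distal than in proximal, about 12.3 against 18.3, without being called. About 36.1 distal and 177 proximal counts stood behind them. In the authors' deposited table its log2 change was -0.57 with an SE of 0.32, an unadjusted p of 0.0719 and an adjusted p of 0.991. Twist2 (ENSMUSG00000007805, chr1:91801461-91848028, plus strand), a close relative of Twist1 known from dermis and connective tissue, was the least counted member with about 14.2 distal and 29.0 proximal counts. Its log2 change in the authors' deposited table, 0.69 with an SE of 0.62, has a 95% interval of -0.51 to 1.90, and a difference under 2.16 on the log2 scale could not have been called. Exons of opposite-strand genes overlap Hand2 (Hand2os1) and Twist2 (Gm29100) in GENCODE M21, so part of their reads may belong to those genes. No difference between Twist1, Twist2 and Hand2 had an interval that leaves out 0.

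**Figure D3:**
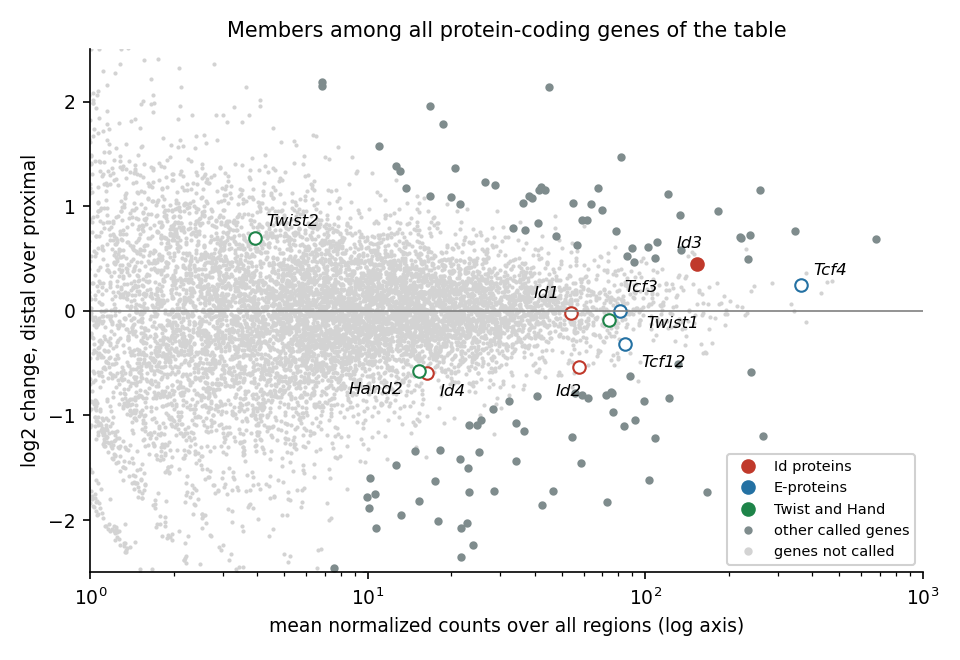
Log2 change of distal over proximal against the mean over all regions (log axis) for the genes of the table; large coloured points are the 10 genes, filled if called, dark grey points are other called genes and light grey points are genes not called. The axes start at a mean of 1 and stop at a log2 change of 2.5 in either direction, which leaves out 4449 genes, 30 of them called; Id3 lies at the lower edge of the called distal genes.

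The spread behind each value was larger than counting alone gives. With counting error only, the SE would be 0.075 for Id3, 0.049 for Tcf4, 0.135 for Id2 and 0.467 for Twist2. The deposited SE was 1.64 times that for Id3, 2.04 times for Tcf4, 1.59 times for Id2 and 1.32 times for Twist2, and between 1.21 and 1.70 times for the other members. The ratio was lowest for the thinly counted Hand2 and Twist2, where counting makes up most of the error.

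Other bHLH genes were examined by family. Of 95 such genes in 4 lists, 64 were in the table. Myog, a muscle differentiation factor that pairs with E-proteins, was the only one called. It stood at 3 counts or fewer in distal, with about 1.43 computed there against 84.9 in proximal. Its log2 change was -4.17 (adjusted p 0.00688) per the authors' deposited table, with a 95% interval of -6.16 to -2.18. With distal held at 3 counts, the proximal level was 8.06 times the distal one, a value that carries no error of the proximal counts. Of the 42 other tissue-restricted bHLH genes 17 were in the table, and 12 of these had a mean under 1. The muscle determination genes Myf5 and Myod1 had log2 changes of -3.04 and -2.63, with unadjusted p of 0.0196 and 0.0266, per the authors' deposited table. They were not called, with about 0.855 and 1.32 counts in distal and 23.2 and 27.1 in proximal.

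In the family of Hes, Hey and Bhlhe40 repressors, which includes Notch targets, 0 of 9 genes in the table were called, and the median log2 change was -0.031. Hes6, which is known to antagonise Hes1, had a log2 change of -1.45 with an SE of 0.48 and an adjusted p of 0.190 per the authors' deposited table. Hey2 had a log2 change of 2.88 and an unadjusted p of 0.0304 there, with about 6.68 distal and 3.00 proximal counts. None of 21 leucine zipper bHLH genes, the Myc, Max and Usf families among them, and none of 17 PAS domain bHLH genes were called, with median log2 changes of -0.14 and -0.23. An unadjusted p under 0.05 was found for 0 of the former and 3 of the latter: Clock with a positive, and Hif1a and Ncoa1 with a negative log2 change. Among 4 zinc finger genes whose proteins also bind E-boxes, 0 were called. Snai1, Snai2 and Zeb1 had log2 changes of 0.020, -0.032 and 0.10 per the authors' deposited table, and Zeb2 had -1.60 with an SE of 0.70 and an adjusted p of 0.620.

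The BMP pathway, which induces Id genes in many tissues, was read from ligands to targets. Among 12 ligand and receptor genes in the table, 0 were called and the median log2 change was -0.12. The ligand gene Bmp2 had a log2 change of 0.71 with an SE of 0.30 and an adjusted p of 0.544 per the authors' deposited table. The joint-associated ligand gene Gdf5 had -1.07 with an SE of 0.43 and an adjusted p of 0.460 there, and the related Gdf6 had an adjusted p of 0.730 with about 1.39 distal and 27.8 proximal counts. The receptor genes Bmpr1a and Bmpr2 had log2 changes of -0.12 and -0.11 per the authors' deposited table, each with a 95% interval that holds 0. The other receptor genes lay further from 0, with Acvr1 at -0.72, Bmpr1b at 0.68, Acvr2b at 0.61 and Acvr2a at 0.44. Their wider 95% intervals also hold 0.

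No Smad gene that carries the BMP signal was called (0 of 4). Smad4, the shared partner of the receptor-activated Smads, had a log2 change of 0.41 with an SE of 0.20 and an adjusted p of 0.869 per the authors' deposited table. Of 12 inhibitor genes 0 were called, with a median of -0.24. The extracellular antagonist genes Fst and Grem1 had log2 changes of -3.49 and -2.41, with adjusted p of 0.116 and 0.755, per the authors' deposited table. Both stood at 3 counts or fewer in distal, with about 1.39 and 2.05 counts there against 51.2 and 35.9 in proximal.

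Of 7 other BMP target genes, Msx1, a homeobox gene of distal limb mesenchyme, was the only one called, with a log2 change of 1.12, an SE of 0.17 and an adjusted p of 2.09e-08 per the authors' deposited table. Msx2 had a log2 change of 0.49 with an SE of 0.24 and an adjusted p of 0.893 there. The feedback inhibitor genes Smad6 and Smad7, also direct BMP targets, had log2 changes of 0.0082 and 0.25 per the authors' deposited table. Bambi and Smad9 had negative values there, -0.30 and -0.011, and Atoh8 had 0.28. The median log2 change of the 7 target genes was 0.25. Of the Id genes set beside them, Id3 had 0.44, Id1 -0.020 and Id2 -0.54 per the authors' deposited table, and of these only Id3 was called. The part of BMP signals in these values was not tested.

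**Figure D4:**
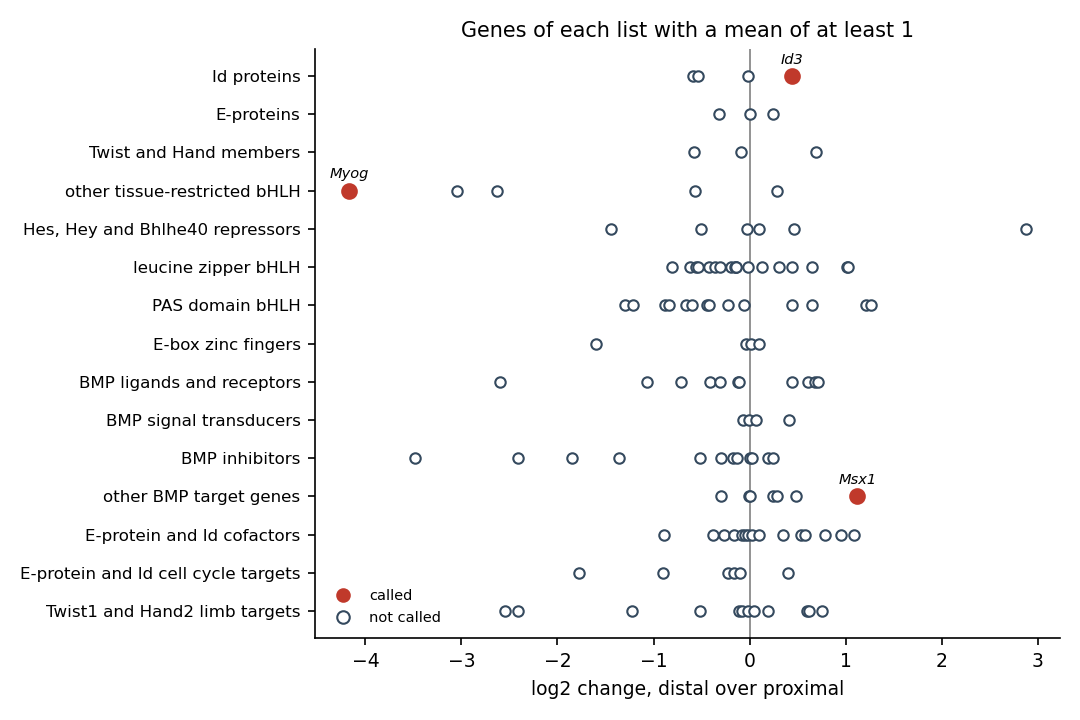
Log2 change of distal over proximal for the genes of each list with a mean of at least 1, 1 row per list; filled red points are called genes and open points are genes not called. Id3 and Msx1 lie to the right as called genes and Myog to the left, and the points of every list plotted fall on both sides of 0.

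Cofactors of E-proteins and Id proteins held no call among 15 genes, with a median log2 change of 0.027. Ldb1 and Lmo4, chosen after their values were seen, encode parts of LIM domain complexes that can hold bHLH dimers. They had log2 changes of 0.96 and 0.54, with adjusted p of 0.0663 and 0.124 per the authors' deposited table. Runx1t1, a corepressor gene with the third unadjusted p under 0.05 of this list, leaned the other way, at -0.38 on the log2 scale (adjusted p 0.853) per the authors' deposited table. Usp1, a deubiquitinase that stabilises Id proteins, had -0.016 there (also chosen after its values were seen). Cell cycle genes linked to Id proteins and E-proteins had 0 calls among 7, and limb genes linked to Twist1 and Hand2 had 0 among 13, with medians of -0.16 and -0.078. Of those 13, Tbx3 and Grem1 had an unadjusted p under 0.05, both with lower levels in distal. Tbx3, a T-box gene of limb patterning, had an adjusted p of 0.365 per the authors' deposited table, with about 2.94 distal and 56.5 proximal counts. Over the 12 lists beside the members, 131 of 165 genes were in the table, of which 1 was a distal and 1 a proximal call, 1.53% in all. The share called was 0.977% over all genes of the table and 3.03% over those with a mean of at least 10. Beside these shares, a count of 0 or 1 does not set any of these lists apart.

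Markers of the cells that the regions could hold were read beside Id3 and Myog. The limb mesenchyme markers were all in the table (8 of 8), with summed levels of about 608 in distal and 558 in proximal. Lhx2 and Msx1 were called higher in distal, and Pdgfra and Tbx5 higher in proximal. Lhx9, a relative of Lhx2, had a log2 change of 0.51 with an unadjusted p of 0.0141 per the authors' deposited table and was not called. Of 5 cartilage markers 4 were in the table, with summed levels of about 1223 in distal and 831 in proximal, and Sox9 was called higher in distal. Sox9 alone made up about 842 and 522 of these sums. Acan, a cartilage matrix gene, had the opposite sign, with levels of about 2.23 in distal and 6.63 in proximal. Its log2 change was -1.57 with an unadjusted p of 0.0345 per the authors' deposited table, and it was not called. Col2a1 and Col9a1, cartilage collagen genes, had log2 changes of 0.57 and 0.14 per the authors' deposited table, each with a 95% interval that holds 0. Muscle markers had summed levels of about 10.1 in distal and 87.8 in proximal, and Actc1 and Myog of 7 were called higher in proximal. The part of cartilage and muscle cells in the values of the members was not tested. Endothelial and blood markers (4 of 9 in the table) and surface ectoderm markers (4 of 8) all had means under 1, with summed means of 1.69 and 0.806 normalized counts. For the 4 markers of neural crest and Schwann cells, the summed mean was 4.37.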

How the data were processed

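Per the labels, polyA RNA of 5 distal and 5 proximal lit regions of 10 µm sections was sequenced as 2 pooled libraries. The file is the authors' deposited comparison of distal with proximal, whose column names, per the file headers, are those of a DESeq2 results table. The mean is a signal in normalized counts, averaged by the authors over all regions. Their fitted log2 change and its SE are deposited beside it. The authors' statistic, a score, is the ratio of these 2 values (largest gap 1.91e-06). The p-value and adjusted p are as deposited by the authors, and measure only the spread between these regions, which may be technical. The submitters' processing notes name the builds mm10 and GRCm38; the aligner and the counting are not given in the sources used here.

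Size factors were read from the lowest means, which repeat on steps of 1 count in 1 region; a step needed at least 20 genes. The 10 steps gave 5 distal and 5 proximal factors, sided by how the log2 change moved from 1 to 2 counts. Side levels solve the mean and the log2 change with equal weights, and 3 counts correspond to a level of 1.02 in distal and 0.311 in proximal. Intervals are 95% normal intervals from the deposited SE. No count model was fitted here, since the table holds no value per region. The computations were tested on simulated data. The simulation drew only genes with a mean of at least 3 and left out genes with no counts on a side. All of them had the same spread between regions, which was set and not taken from the members. Errors of the counts were read only for genes with at least 10 distal counts. Genes at lower levels, such as Myf5, Myod1, Gdf6, Grem1 and Fst, were therefore not covered. Positions and overlaps come from GENCODE M21 (GRCm38). The last 300 bases of the members' coding transcripts were searched with BLAST 2.17.0 for matches of at least 200 bases at 95% identity in transcripts of other genes, and 0 of 10 members had one. Python 3.11.15 with scipy 1.17.1 was used.

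The members and lists were chosen with earlier results of these data known. All members are named, with called genes of the other lists, genes with an unadjusted p under 0.05 in lists of at most 13 genes, and the 3 called genes closest to each called member in log2 change. Snai1, Snai2, Zeb1, Bmpr1a, Bmpr2, Smad6, Smad7, Clock, Hif1a, Ncoa1, Ldb1, Lmo4, Runx1t1, Usp1, Tbx3, Col2a1 and Col9a1 lie outside this rule and were chosen after their values were seen. The same holds for Bambi, Smad9, Atoh8, Bmpr1b, Acvr1, Acvr2a and Acvr2b.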

Additional observations from a re-analysis of the deposited data

How the results depend on the processing

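The members called numbered 1 (Id3) in the deposited table, and 1 with a threshold of 0.1, with adjustment over the table (Id3 at 0.0333), when only the genes averaging 10 or more entered the adjustment (0.0107) and when their median was set to 0 (0.0380). The number was 0 with a threshold of 0.01, 0 with a log2 change of at least 1 required and 0 once the median over the whole table, 0.067, was set to 0, which left Id3 at a log2 change of 0.38; the first 2 follow from their construction, and for the third the shift itself moves Id3 under the limit. Centring changed no sign among 20 member values, and 19 kept their side of the limit. Of 63 list counts under an alternative, 59 stayed. Centring on all genes took the Id list to 0, a mean of at least 10 took the other tissue-restricted bHLH list to 0 and the muscle list to 1 (Myog left out in both), and a threshold of 0.1 took the cofactor list to 1 (Ldb1). Side levels weighted by the negative binomial model were not run, since they need counts per region. No paired analysis was possible because region-level values were not used here, and no region could be left out in turn for that reason. Depth limits the distal side most, since the proximal size factors sum to 3.30 times the distal ones. Twist2, Id4 and Hand2 are the members on which counts limit the comparison most.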
